A study of Mus musculus with 4 samples.

Results

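The cells described here are 91 barcodes with B cell transcripts among 10324 kept cells of a sort for activated CD8 T cells. They made up 0.881% of all kept cells (exact 95% binomial interval 0.710 to 1.08%), and 0.560 to 1.55% by library. This interval, like those given below over cells, covers counting error only and not the spread between libraries. Members were chosen by measured values: a cell was counted when the unique molecular identifiers (UMIs, 1 per captured transcript) of Cd79a, Cd79b, Ms4a1, H2-Aa, H2-Ab1 and Cd74 summed to at least 50 per 10000 UMIs. The 91 were divided by the sum of 6 T cell genes, Cd3d, Cd3e, Cd3g, Cd8a, Cd8b1 and Trac. In 57 cells this sum was under 5 per 10000, and these are called members without T cell transcripts. In the remaining 34, members with T cell transcripts, it was 5 or more. The series held 4 single-cell RNA libraries of CD8+ cells that carried CD44 and CD90.1 on their surface, purified by flow cytometry from lymph nodes draining a tumour in C57BL/6 mice at day 14 after implantation. The M9 group, labelled high affinity GP33, had 2 libraries from 10 mice, and the C6M9 group, labelled low affinity GP33, had 2 libraries from 35 mice. The labels call the libraries of a group biological duplicates and do not say how the mice were divided between them, so p-values may measure technical spread alone. The sources used here give neither the sex or age of the mice nor the tumour line.

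B cells are lymphocytes that recognise antigen through a membrane immunoglobulin. The immunoglobulin has heavy and light chains and signals through the CD79A and CD79B proteins, and each B cell normally uses a light chain of either the kappa or the lambda kind. B cells take up antigen, load its peptides onto major histocompatibility complex (MHC) class II molecules and show them to CD4 T cells, and they fill the follicles of every lymph node. They lack CD3, CD8 and CD90, the products that define the sorted T cells.

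Members numbered 24 of 4285 kept cells in M9 replicate 1, 11 of 1224 in M9 replicate 2, 28 of 3012 in C6M9 replicate 1 and 28 of 1803 in C6M9 replicate 2. The libraries held 33680632 to 79174627 UMIs, with a median of 13360 to 21702 UMIs per kept cell, and M9 replicate 2 was the smallest. Between libraries 7 barcodes recurred, none of them a member. Members came from every library, so no library alone supplied them.

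The sums that chose the cells are given as a description. Of the 10324 cells, 9964 had under 5 B gene UMIs per 10000 and serve as the other cells below, while 269 lay between 5 and 50. The 5 members nearest the limit had 52.1 to 58.4 per 10000, and the 5 nearest cells below it had 49.3 to 42.0. All 10 carried T cell genes, at 36.3 to 71.3 per 10000, so the B gene limit runs through cells that hold both kinds of transcript. At the T gene limit the classes adjoined, with few cells near it. Among members without T cell transcripts 38 of 57 had no UMI of the 6 T cell genes, 18 had 1 UMI and 1 had 3, and the highest sum was 4.33 per 10000. Among the 34 with them, 4 cells had 5.07 to 9.03 per 10000 from only 2 to 8 UMIs, and the next had 20.8. Of these 4 cells, 2 had B gene sums of 298 and 416 per 10000 and 3622 and 3698 UMIs in all, values within the range of the members without T cell transcripts.

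**Figure D1:**
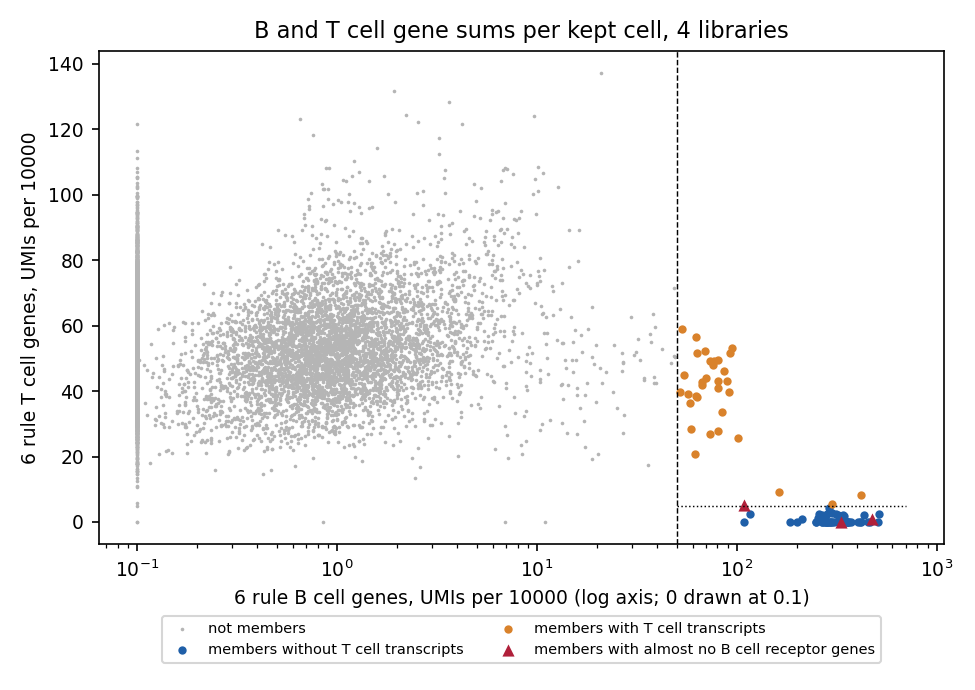
Each point is a kept cell of the 4 libraries, with UMIs per 10000 of the 6 B cell genes on a log horizontal axis (0 drawn at 0.1) and of the 6 T cell genes on the vertical axis; the dashed line is the B gene limit of 50 and the dotted line the T gene limit of 5. The 57 members without T cell transcripts lie along the bottom right, 30 of the 34 with them lie above 20 T gene UMIs per 10000, and triangles mark the 3 members with almost no B cell receptor genes.

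The label of B cells was checked against 6 markers, of which Igkc, the kappa constant region, and Ebf1, a transcription factor that sets B cell identity, were not in the rule. In members without T cell transcripts Igkc stood at 5529 and 8915 UMIs per 1000000 (CPM, from UMIs summed per library) in M9 replicates 1 and 2, and at 6668 and 6259 CPM in C6M9 replicates 1 and 2. Every library of the other cells was between 1.57 and 2.34 CPM. Ebf1 stood at 1195 and 1344 CPM in M9 and at 1323 and 1203 CPM in C6M9, against 0.271 CPM over all other cells. After thinning every cell to 2000 UMIs, Igkc was seen in 94.7% of members without T cell transcripts and 0.332% of other cells (median depths before thinning 4671 and 15500 UMIs), and Ebf1 in 93.0% and 0.0402%. The markers thus matched the label in 55 of the 57 cells.

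The other 2 of the 57 had no Igkc and no Ebf1 and at most 1 UMI each of Cd79b and Ms4a1. The one in C6M9 replicate 1, with 9849 UMIs, held 206 of Cd74 and 191 of H2-Aa, 20 of Fscn1, which bundles actin in mature dendritic cells, 17 of Relb, 23 of the homing receptor gene Ccr7 and 9 of Cxcl16. The one in C6M9 replicate 2, with 26868 UMIs, held 447 of Cd74, 330 of Cst3 (cystatin C, a protease inhibitor abundant in dendritic cells), 65 of Irf8, 36 of Lyz2, 30 of Plbd1 and 3 of Clec9a. Both pass the rule through MHC class II genes, and their leading genes are dendritic cell genes, so the B cell label is not used for them. Another such cell stood among the members with T cell transcripts, in C6M9 replicate 1. It had 9857 UMIs, 2.03 per 10000 of Cd79a, Cd79b and Ms4a1 together, 32 UMIs of Siglech and 42 of Irf8, genes of plasmacytoid dendritic cells, and 25 of Iglc3 with no Igkc. Results that rest on these 3 cells are given with and without them, under a minimum of 3 UMIs per 10000 of Cd79a, Cd79b and Ms4a1 that was set after the values had been seen.

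MHC class II genes were abundant in the members, and 3 of them were in the rule. Cd74, the invariant chain that guides class II molecules to the peptide loading compartment, stood at 16503 and 14905 CPM in M9 and 17462 and 14919 CPM in C6M9 in members without T cell transcripts. H2-Eb1, a class II beta chain that the rule did not use, stood at 4051 and 3915 CPM in M9 and 5240 and 4058 CPM in C6M9. With the 2 cells lacking receptor genes left out, it stood at 3986 and 3528 CPM in C6M9. In C6M9 replicates 1 and 2 these cells held 21.9 and 26.2% of the UMIs of the 10 class II genes listed. The other cells held 0.989 CPM of H2-Eb1. All 10 class II genes listed were higher in these members than in the other cells in every library. Of the 3367 genes at 50 CPM or more in either class, 18.8% were, and the rule used this contrast, so nothing is read from the count. The peptide editors H2-DMa (599.5 CPM), H2-DMb1 (225 CPM) and H2-DMb2 (476 CPM), the B cell editors H2-Oa (320 CPM) and H2-Ob (530 CPM), and Ciita (279 CPM), the master activator of class II transcription, were all among them. Promoters are shown for the rule gene H2-Aa, a class II alpha chain, and for H2-Eb1, as the 100 bases before the start that RefSeq gives on GRCm38.p6. They are written 5′ to 3′ on the strand of the gene, with ATTGG, the core of the Y box of class II promoters, or its reverse CCAAT in capitals.
H2-Aa: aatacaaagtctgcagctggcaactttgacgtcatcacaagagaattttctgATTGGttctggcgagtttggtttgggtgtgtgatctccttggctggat
H2-Eb1: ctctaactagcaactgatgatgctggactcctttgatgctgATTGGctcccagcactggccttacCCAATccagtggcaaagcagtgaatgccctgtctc
The first lies at chr17:34287824-34287923 on the minus strand and the second at chr17:34305767-34305866 on the plus strand. The motif begins 48 bases before the start in H2-Aa, and 59 and 35 bases before it in H2-Eb1. Of the 10 class II genes 7 had a promoter in the table, and ATTGG or CCAAT was found on either strand within 100 bases of the start in 6 of them and within 250 bases in 7. Over all 32851 promoters of the table the shares were 18.9% and 33.8%. A match describes the letters and is not evidence of binding.

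The genes that set members without T cell transcripts farthest apart, ranked by the ratio to the other cells outside the rule, were B cell genes. After Igkc and H2-Eb1 came Ly6d, a surface marker of the B lineage, at 1453 CPM against 0.313 CPM, then Ebf1, and Mef2c, a transcription factor of the MEF2 family, at 1145 CPM against 0.267 CPM. Iglc2, Iglc3, Fcmr, Fcer2a, Gm31243, Bcl11a, Ly86, H2-DMb2, Iglc1 and Pax5 completed the first 15. Fcmr, the receptor for IgM, stood at 822 CPM, and Pax5, which commits cells to the B lineage, at 298 CPM. All 18 B identity genes listed were higher than in other cells in every library. The highest in level were Ebf1, Mef2c, Cd37 (882 CPM), Fcmr, Bank1 (511 CPM) and Ralgps2 (482 CPM). Of 12 genes of B cell receptor signalling 11 were, from the phosphatase Ptpn6 (358 CPM, also 160 CPM in other cells) and the kinases Syk (238 CPM) and Lyn (228 CPM) to the adaptor Blnk (178 CPM). The exception was Vav3, with 5 UMIs in all. Both counts stand beside 18.8% of the 3367 genes at 50 CPM or more in either class. The rule used this contrast, so nothing is read from the counts.

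Heavy chain constant transcripts were those of IgM and IgD. Ighm stood at 1943 and 2406 CPM in M9 and 2279 and 1879 CPM in C6M9, and Ighd at 1361, 1462, 1166 and 734 CPM in the same order, in members without T cell transcripts. At 3 or more UMIs, Ighm was seen in 54 of the 57 cells, Ighd in 44 and both in 42 (73.7%, exact 95% interval 60.3 to 84.5%). No cell reached 3 UMIs of a switched class, which allows a share of up to 6.27% by counting error alone. These limits pool the cells of 4 libraries and do not cover the spread between libraries. Ighg1, Ighg2b, Ighg2c, Ighg3 and Ighe were at 0 and Igha had 3 UMIs in 2 cells. Ighm was not specific to the members, since the other cells held 241 CPM and 37.5% of them had a UMI at 2000 UMIs per cell. Ighd separated the classes better, at 6.78 CPM in the other cells.

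Light chain constant transcripts of both kinds were found in nearly every member. At 3 or more UMIs, 55 of the 57 members without T cell transcripts held Igkc together with Iglc1, Iglc2 or Iglc3 (96.5%, exact 95% interval 87.9 to 99.6%), and the other 2 were the cells without receptor genes. Among these 55 the median was 31 UMIs of Igkc and 13 of the lambda genes, and kappa made up a median of 71.8% of the light chain UMIs. Kappa was the larger in 51, lambda in 3 and 1 was level. A cell in C6M9 replicate 2 stood apart at 5% kappa, with 4 UMIs of Igkc and 76 of lambda, 45 of them from Iglc1. The next lowest cell was at 43.3%. Among members with T cell transcripts 30 of 34 held both kinds, and 3 held lambda with no Igkc. Of these 3, 1 was the Siglech cell and the other 2 were in M9 replicate 1, with 28 and 32 lambda UMIs. Variable segments could not tell which chain a cell used, because no member without T cell transcripts had 3 UMIs of any kappa, lambda or heavy variable segment in these 3′ libraries. The other cells held 0.392 CPM of Iglc2 and 0.234 CPM of Iglc3, and whether shared sequence between constant genes or free RNA gave lambda counts to kappa cells was not tested.

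**Figure D2:**
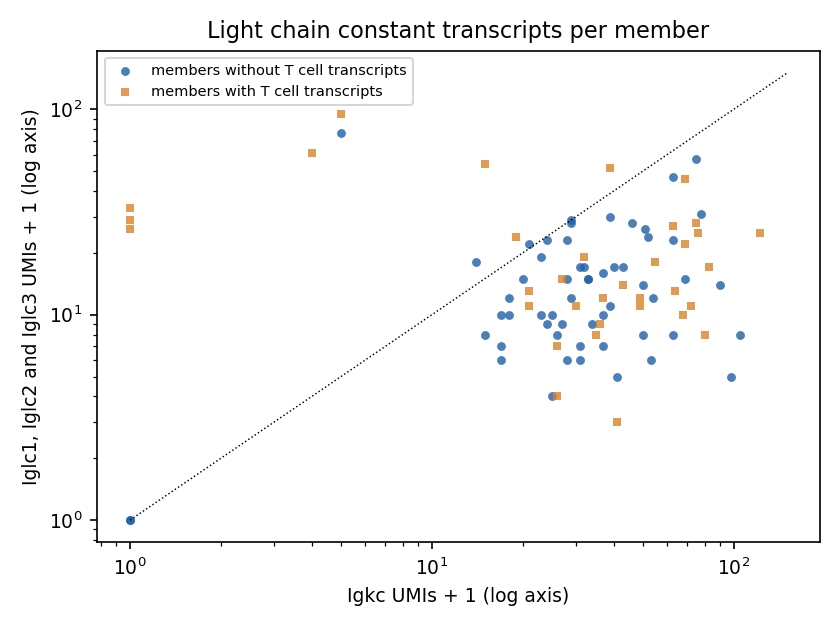
Each point is a member, with Igkc UMIs plus 1 on the horizontal and the sum of Iglc1, Iglc2 and Iglc3 UMIs plus 1 on the vertical log axis; the dotted line marks equal values. Of the 55 members without T cell transcripts that have a light chain, 51 lie below the line, and the 2 cells without receptor genes overlap at the origin.

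Genes of B cell states were counted in members without T cell transcripts. A UMI was found for 12 of 12 follicular, 8 of 10 marginal zone and B1, 8 of 12 germinal centre and 6 of 9 plasma cell genes. The follicular genes Ighd (1056 CPM), Klf2 (761 CPM), a factor that keeps lymphocytes quiescent, Foxp1 (695 CPM), Fcer2a (485 CPM), which encodes CD23, and Cd55 (403 CPM) led their list, in which 8 of 12 were higher than in other cells in every library. Of these 12 genes 1 was lower in every library. Klf2 and Foxp1 were also high in the other cells, at 359 and 227 CPM. The counts of this paragraph stand beside the 18.8% of all genes at 50 CPM or more that were higher in every library, and the 31.5% that were lower. Of all 32285 features, 10233 had a UMI in these members. The rule used this contrast, and nothing is read from the counts. In the marginal zone and B1 list 2 of 10 were higher in every library, among them Mzb1, and Cd5 and S1pr3 were at 0. Of 12 germinal centre genes 8 had a UMI and 1 was higher in every library. Bcl6 had 1 and 2 UMIs in M9 and 4 and 10 in C6M9, and Fas had 11 and Basp1 9 in C6M9 replicate 1. In that library the Fscn1 cell gave 20 of the list's 24 UMIs. Rgs13 and Mybl1 had 1 UMI each and S1pr2, Gcsam, Efnb1 and Nuggc had none. In the plasma cell list 1 of 9 genes was higher in every library. It was Mzb1, a chaperone of antibody assembly that stands in both lists, with 91 UMIs in 39 cells, at 289 CPM against 0.158 CPM in other cells. Sdc1, Prdm1 and Tnfrsf17 were at 0, and all 5 UMIs of Jchain lay in 1 cell of C6M9 replicate 2. That cell had 4986 UMIs and also held 13 UMIs of the cycle gene Ube2c and 8 of Vpreb3. Of 16 activation genes 5 were higher in every library, with Cd69 at 162 CPM and Cd83 at 124 CPM against 97.3 and 24.5 CPM in other cells.

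Receptors for survival signals were present. Tnfrsf13c, which encodes the BAFF receptor, stood at 251 CPM in members without T cell transcripts and 3.90 CPM in other cells, Tnfrsf13b at 174 and 17.3 CPM, and Cd40 at 95.2 and 0.0250 CPM. The memory marker Cd27 was low, at 19.0 CPM against 250 CPM.

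The cell cycle list was lower in members without T cell transcripts for all 16 genes in every library, against 31.5% of the 3367 genes, in the same contrast that the rule used. Summed over the list the members held 714 and 590 CPM in M9 and 458 and 1005 CPM in C6M9, and the other cells 3990 to 5837 CPM. Mki67, the proliferation marker, had 1 UMI in the 57 cells and stood at 265 CPM in the other cells. In C6M9 replicate 2 the Ube2c cell gave 44.5% of the list's UMIs. Interferon-stimulated genes were near the 966 to 1222 CPM of the other cells in 3 libraries, at 1029, 1113 and 778 CPM summed in M9 replicate 1 and C6M9 replicates 1 and 2. M9 replicate 2 was higher at 3608 CPM, of which 1 cell gave 65.4%, and it stood at 1500 CPM without that cell. Immediate early and stress genes summed to 3951 and 2099 CPM in M9 and 3877 and 4638 CPM in C6M9, against 1871 to 2629 CPM in the other cells. Junb (660 CPM) and Jund (888 CPM), which encode AP-1 factors, led that list.

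Products that the sort selects for were nearly absent from members without T cell transcripts. Thy1, which encodes CD90, was seen in 1 of 57 cells and Cd44 in 6. Cd8a was seen in 4 and Cd8b1 in 2, which the rule fixed, since both are in its T cell sum. Cd44 had 14 UMIs, 8 of them in the Fscn1 cell. Over the list of 16 further T cell genes, such as Trbc2, Lck and Bcl11b, the summed level was 198 to 432 CPM by library against 6738 to 7502 CPM in other cells, and Cd5 and Cd6 were at 0. The T cell receptor segments Trbv13-3 and Trav14-1, at 62.5 and 67.3 CPM in the other cells, had 0 and 1 UMI. Genes of other cell types were also counted. Red cell and platelet genes had 1 UMI, of Hbb-bt, and the melanocyte genes Pmel, Mlana and Dct and the collagen genes Col1a1 and Col1a2 had none. At 0 were 5 of 6 CD4 and regulatory T cell genes, 5 of 7 natural killer and innate lymphoid genes and 7 of 17 dendritic and myeloid genes. Of all 32285 features only 10233 had a UMI in these members, so nothing is read from the counts at 0. The summed level of the dendritic and myeloid list was 149 and 165 CPM in M9 and 694 and 3111 CPM in C6M9. Other cells held 80.5 to 91.9 CPM of it by library. The cells without receptor genes gave 73.6 and 92.7% of the list's UMIs in the C6M9 libraries. Xist and Tsix, RNAs of the inactive X chromosome locus, had no UMI, and Ddx3y and Eif2s3y, genes of the Y chromosome, had 17 UMIs each.

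Members with T cell transcripts held genes of both cell types, as the rule required through its sums. Cd79a and Cd8b1 are in these sums, though the rule requires no single gene. Cd79a stood at 672 and 872 CPM in M9 and at 792 and 690 CPM in C6M9 in these cells, which is 0.289 times its level in members without T cell transcripts and 867 times that in other cells. Igkc stood at 1188 and 2180 CPM in M9 and at 2838 and 2002 CPM in C6M9. Cd8b1 stood at 839 and 779 CPM in M9 and 987 and 985 CPM in C6M9, close to the 971 to 1103 CPM of the other cells. Trbv13-3 and Trav14-1 stood at 70.6 and 72.0 CPM and were seen in 19 and 20 of the 34 cells. Thy1 was seen in 27 of 34 and Cd44 in 27 of 34. The cell cycle list summed to 2950 and 862 CPM in M9 and 768 and 1515 CPM in C6M9, below every library of the other cells.

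Median depth, which the rule did not use, differed between the classes. Single cells overlapped, at 2311 to 26868 UMIs in members without T cell transcripts and 3622 to 55824 in those with them. Other cells had 1014 to 420111 UMIs. Members without T cell transcripts had a median of 4117 and 7059 UMIs per cell in M9 and 3684 and 5361 in C6M9. Members with them had medians of 19591 and 24965.5 in M9 and 15656 and 29026 in C6M9, and the other cells 13292, 20086, 14201 and 21680 in the same library order. The order was the same in all 4 libraries. On the log2 scale members with T cell transcripts exceeded those without by 2.15 ± 0.26 (SD, n = 4 libraries), 4.44-fold. They exceeded the other cells by 0.36 ± 0.18, 1.28-fold. Members without T cell transcripts lay below the other cells by 3.46-fold, a log2 ratio of -1.79 ± 0.23. Each difference had an exact two-sided permutation p of 0.13 over the signs of the 4 libraries, which is the smallest p that 4 pairs allow and is the same adjusted over the 3 comparisons. The sum of the medians of members without T cell transcripts and of other cells came to 17409 and 27145 UMIs in M9, and to 17885 and 27041 UMIs in C6M9. The medians of members with T cell transcripts lay on both sides of these sums. A doublet score from the expression profiles left out 277 kept cells and none of the 91 members. That score compares each cell with simulated pairs of kept cells. B cells were few among these, and how well the score marks their pairs was not tested. Its median was 0.106, 0.0240, 0.0426 and 0.0380 in members with T cell transcripts, in the same library order, the highest of the classes in each library. It was 0.0496, 0.0225, 0.0315 and 0.0155 in those without, and 0.0576, 0.0147, 0.0333 and 0.0206 in other cells. Whether the 34 barcodes held a B cell and a T cell together was not tested.

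**Figure D3:**
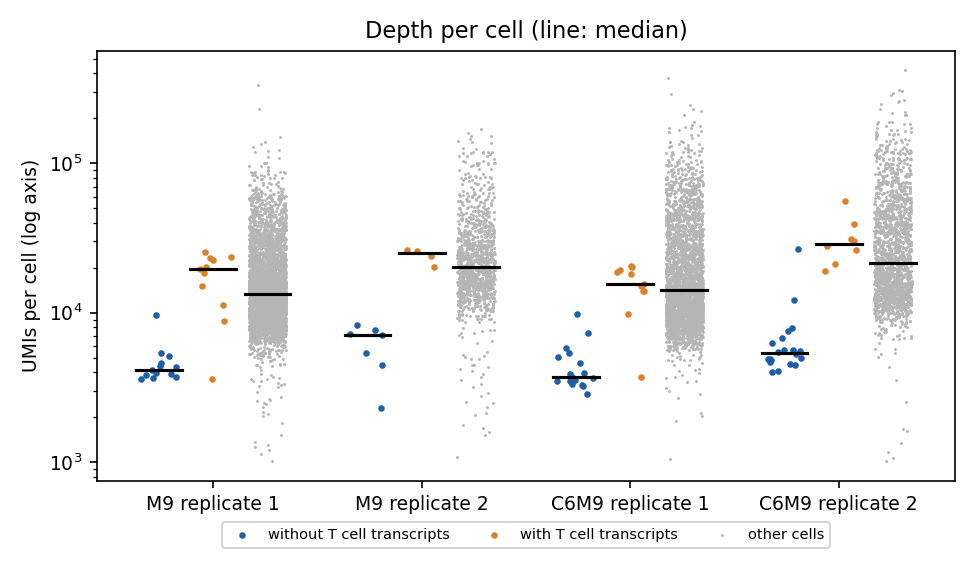
UMIs per cell on a log axis in the 4 libraries; points are cells and lines are medians. In each library the median of members without T cell transcripts is lowest and that of members with them is highest, from 3684 to 7059 and from 15656 to 29026 UMIs.

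The first comparison of groups asked whether the low affinity group carried more of these cells. The share of kept cells that were members was 0.560% (exact 95% binomial interval 0.359 to 0.832%) and 0.899% (0.449 to 1.60%) in M9, and 0.930% (0.619 to 1.34%) and 1.55% (1.03 to 2.24%) in C6M9. Intervals cover counting error only. C6M9 was higher by 0.512 points, at 1.24 ± 0.441% (SD, n = 2) against 0.729 ± 0.239%, and an exact two-sided permutation test gave p = 0.333, the smallest p that 2 against 2 libraries allows. The groups did not overlap, but M9 replicate 2 and C6M9 replicate 1 were nearly level, and without C6M9 replicate 2 the difference was 0.200 points. With the 3 cells lacking receptor genes left out the shares of C6M9 were 0.863 and 1.50%, the groups overlapped and the exact permutation p was 0.667. They also overlapped, with the same p, over all deposited barcodes (M9 replicate 2 at 0.906% and C6M9 replicate 1 at 0.901%) and under a stricter cell filter (0.560 and 0.529%). Members without T cell transcripts made up 0.303 and 0.572% of kept cells in M9 and 0.564 and 1.11% in C6M9 (exact permutation p = 0.667), with overlap. Members with T cell transcripts made up 0.257 and 0.327% in M9 and 0.365 and 0.444% in C6M9 (exact permutation p = 0.333). Of the members, 54.2 and 63.6% in M9 and 60.7 and 71.4% in C6M9 had no T cell transcripts (exact permutation p = 0.667). The labels give 16500 cells loaded for both M9 libraries and 14900 and 11600 for C6M9, and the part of the loading in these shares was not tested.

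**Figure D4:**
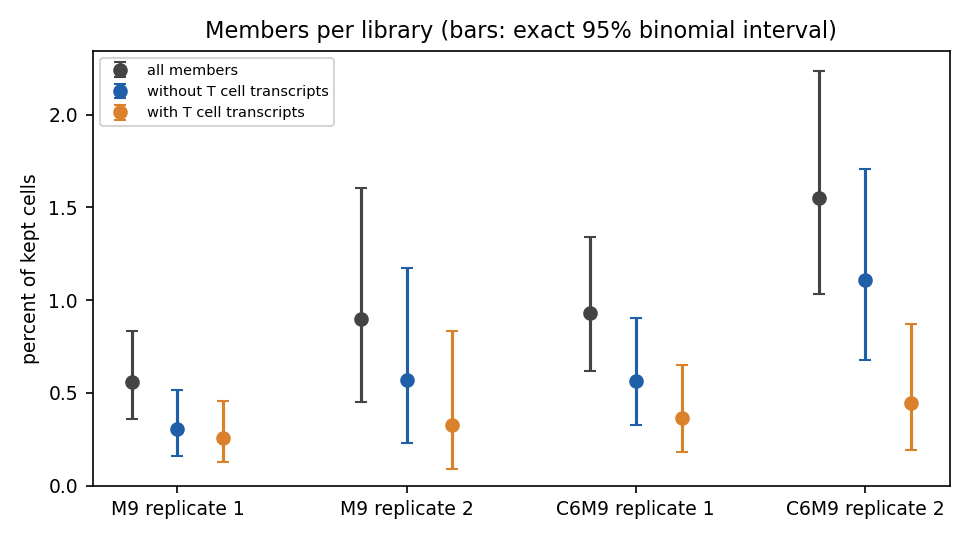
Percent of kept cells in each library that were members, for all members, those without and those with T cell transcripts; bars are exact 95% binomial intervals. For all members C6M9 replicate 2 is highest at 1.55% of its kept cells, and its neighbours M9 replicate 2 and C6M9 replicate 1 lie at 0.899 and 0.930%.

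Within members without T cell transcripts the listed B cell genes did not pass the test between groups. Of those given here, Cd74, H2-Aa and 3 of the 10 class II genes in all were in the sum that chose the members. Raw UMIs summed per library were compared with edgeR's quasi-likelihood test with Benjamini-Hochberg adjustment over 896 genes that passed a filter on low counts. It called 4 genes (0.446%) at an adjusted p under 0.05, 3 higher (0.335%) and 1 lower (0.112%) in C6M9, while the unadjusted p was under 0.05 for 60. The log2 difference of C6M9 minus M9 was -0.14 ± 0.20 (SE) for Igkc, -0.05 ± 0.26 for Ighm, -0.57 ± 0.32 for Ighd, 0.06 ± 0.17 for Cd74, 0.34 ± 0.21 for H2-Aa and 0.01 ± 0.31 for Ebf1. Of 13 B identity genes tested of 18, 10 class II genes of 10, 7 receptor signalling genes of 12 and 8 follicular genes of 12, none was called. Their median log2 differences were -0.15, 0.04, -0.05 and -0.36, beside -0.00 over all 896 genes. With the 2 cells lacking receptor genes left out, the medians were 0.21, -0.07, 0.16 and -0.14, beside 0.01 over 827 genes. Nothing is read from their signs. DESeq2 called no gene, with 12 at an unadjusted p under 0.05.

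The 4 called genes did not mark a B cell programme. Cst3 had 9 and 7 UMIs in M9 and 25 and 359 in C6M9, and was higher in C6M9 by 3.27 ± 0.43 on the log2 scale (adjusted p = 3.89e-11, edgeR). A single cell gave 330 of its 384 C6M9 UMIs, 85.9%. Vim, an intermediate filament of mobile cells, had 7 and 8 UMIs in M9 and 42 and 98 in C6M9 (2.12 ± 0.46, edgeR adjusted p = 0.00110). Hspa8, a constitutive chaperone, had 37 and 22 UMIs in M9 and 82 and 237 in C6M9 (1.32 ± 0.35, edgeR adjusted p = 0.0334). For these 3 genes both C6M9 libraries lay above both M9 libraries in CPM. Gm42418, a non-coding gene that overlaps a ribosomal RNA unit, stood at 3885 and 18820 CPM in M9 and at 4650 and 3500 CPM in C6M9 (-1.46 ± 0.20, edgeR adjusted p = 7.83e-11). Its groups overlapped: M9 replicate 2 alone was high, 1 cell gave 37.4% of the M9 UMIs, and the other cells of M9 replicate 2 were also high at 8258 CPM. Without M9 replicate 2 its difference was 0.056 ± 0.28. Without C6M9 replicate 2 the differences of Cst3 (1.10 ± 0.59), Vim (1.93 ± 0.58) and Hspa8 (0.96 ± 0.47) were not called. Hspa8 was also not called without either M9 library, with a replicate block (1.28 ± 0.39, edgeR adjusted p = 0.192) or with no filter on low counts (1.47 ± 0.44, edgeR adjusted p = 0.350), nor Vim without M9 replicate 1, nor Gm42418 with no such filter (edgeR adjusted p = 0.960). With the 2 cells lacking receptor genes left out, edgeR called none of 827 genes, 31 had an unadjusted p under 0.05, and Cst3 stood at 0.61 ± 0.47, Vim at 0.95 ± 0.47 and Hspa8 at 1.02 ± 0.33.

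**Figure D5:**
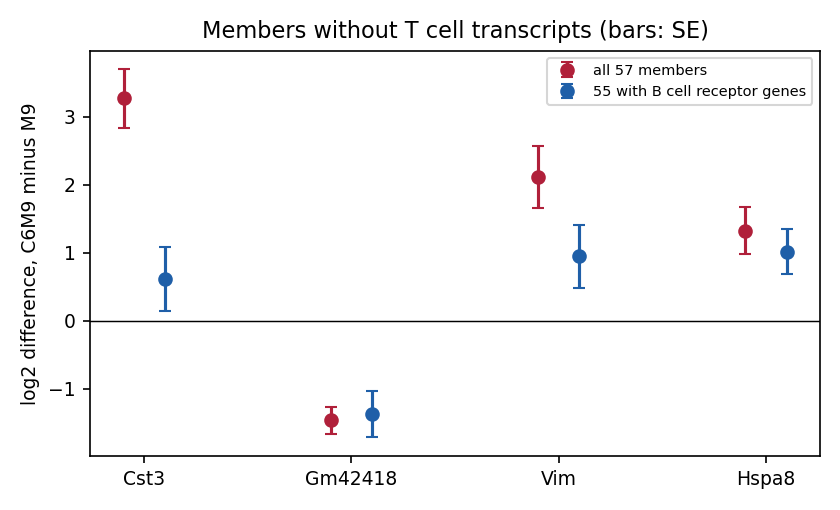
Log2 differences of C6M9 minus M9 with their SE for the 4 called genes in all 57 members without T cell transcripts (red) and in the 55 with B cell receptor genes (blue). Cst3 goes from 3.27 to 0.61 and Vim from 2.12 to 0.95 when the 2 cells are left out, and Gm42418 stays near -1.4.

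Over all 91 members, which mix B and T cell RNA, 13 of 3686 genes were called (0.353%), 7 higher (0.19%) and 6 lower (0.163%) in C6M9, and the unadjusted p was under 0.05 for 234. No gene of the B identity, class II or receptor signalling lists was among them. Most of the called genes stood in the members with T cell transcripts. Lag3, an inhibitory receptor of T cells, had 38 and 30 UMIs in M9 and 4 and 18 in C6M9 (-2.31 ± 0.40, edgeR adjusted p = 3.62e-05). All but 1 of these UMIs were in members with T cell transcripts, where it stood at 198 and 312 CPM in M9 and 23.6 and 67.8 CPM in C6M9. Il7r, the receptor of interleukin 7, had 20 and 10 UMIs in M9 and 100 and 87 in C6M9 (2.06 ± 0.33, edgeR adjusted p = 6.01e-06). The other cells differed between groups too, at 182 and 177 CPM of Lag3 in M9 and 73.6 and 81.7 CPM in C6M9, and at 120 and 149 CPM of Il7r in M9 and 272 and 251 CPM in C6M9. S100a4 and S100a6, small calcium-binding proteins, were higher in C6M9 by 1.87 ± 0.31 and 1.51 ± 0.30, and they too were higher in C6M9 among the other cells.

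Trdc, the constant region of the delta T cell receptor chain, had different levels in the members and in the other cells. It had 17 and 5 UMIs in M9 and 92 and 63 in C6M9 (2.26 ± 0.36, edgeR adjusted p = 6.01e-06). In members with T cell transcripts it stood at 83.4 and 51.9 CPM in M9 and 538 and 243 CPM in C6M9, whereas the other cells stood at 406 and 398 CPM in M9 and 391 and 413 CPM in C6M9. Whether the difference between groups itself differed from that in the other cells was not tested for these cells. Lower in C6M9 were also Cd69, an early activation marker (-1.35 ± 0.30), Ptms (-1.30 ± 0.29), Dgkz, a kinase that dampens T cell receptor signals (-1.52 ± 0.36), Hltf (-1.98 ± 0.48) and Tnfsf8 (-1.92 ± 0.49).

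The remaining called genes rested on the cells without receptor genes. Cst3 was higher by 2.67 ± 0.34, Irf8, a transcription factor of dendritic and B cells, by 1.71 ± 0.30, and Mpeg1, a pore-forming protein of phagocytes, had no UMI in M9 and 18 and 20 UMIs in C6M9 from 2 cells. Without the 3 cells Cst3 stood at 0.64 ± 0.34 and Irf8 at 0.74 ± 0.33, neither called, and Mpeg1 did not pass the filter. Tnfsf8 also lost its call, at -1.81 ± 0.50 (edgeR adjusted p = 0.0584). Another 13 of 3545 genes were then called (0.367%), 9 of them in common with the first 13, with Klrd1, Klrk1, Traf1 and Gzma added. Gzma lay in 2 libraries only, at 1209 CPM in M9 replicate 1 and 538 CPM in C6M9 replicate 2 in members with T cell transcripts. DESeq2 called none of the 3686 genes, with 48 at an unadjusted p under 0.05. The number called by edgeR depended on single libraries: it was 97 without M9 replicate 1, 35 without M9 replicate 2, 6 without C6M9 replicate 1 and 18 without C6M9 replicate 2. Of the 13 genes 11 were not called without C6M9 replicate 1, among them Trdc (1.64 ± 0.46), Il7r (1.65 ± 0.43) and Lag3 (-1.83 ± 0.49).

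Whether the difference between groups in members without T cell transcripts departed from that in the other cells was tested as the product of class and group over 11899 genes. edgeR's quasi-likelihood test called 4 of them, 0.0336%, with an unadjusted p under 0.05 for 261; it called 0 without M9 replicate 1, 1 without M9 replicate 2, 2 without C6M9 replicate 1 and 9 with C6M9 replicate 2 left out. The 4 genes were Cst3, Tbc1d4, Fabp5 and S100a4, and each rested on the cells without receptor genes. Cst3 differed by 3.03 ± 0.47 (adjusted p = 1.82e-06). Tbc1d4 had 0 and 1 UMI in M9 and 36 and 4 in C6M9, Fabp5 had none in M9 and 61 and 1 in C6M9, and S100a4 had none in M9 and 35 and 15 in C6M9. In each of these 3, a single cell gave 70.0 to 98.4% of the C6M9 UMIs. With the 2 cells left out none of the 4 was called, and 2 of 11872 genes were (0.0168%), 1 higher and 1 lower (0.00842% each). Cd22, an inhibitory receptor of B cells, had a difference of differences of 2.70 ± 0.56 (adjusted p = 0.0163). In the 55 members it stood at 216 and 212 CPM in M9 and 391 and 210 CPM in C6M9, which overlap, while the other cells stood at 48.7 and 42.2 CPM in M9 and 9.66 and 10.6 CPM in C6M9. For Plac8 the value was -2.12 ± 0.46 (adjusted p = 0.0188), with 515 and 259 CPM in M9 and 165 and 238 CPM in C6M9 in the members, and 78.0 and 102 CPM in M9 and 220 and 213 CPM in C6M9 in the other cells. The groups of the other cells did not overlap for either gene.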

How the data were processed

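Raw UMI counts per gene and barcode were deposited by the authors, 1 matrix for each of 4 libraries (10x Genomics 3′ chemistry, per the labels' protocols), made with Cell Ranger 6.0.0 on mm10, per the submitters' processing notes. The sources used here do not name the annotation or say whether introns were counted. Of 32285 features 32158 matched GENCODE M21.

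Of 11113 barcodes, 10324 passed minimums of 500 genes and 1000 UMIs and a maximum of 10% mitochondrial UMIs. The members and the 25 gene lists were chosen with earlier results of these data known, and 4 listed genes were not matched. Counts were summed per library and class. Groups were compared with edgeR 4.0.16 (R 4.3.3, TMM, filterByExpr, quasi-likelihood test, two-sided), with DESeq2 1.42.0 as an alternative, at an adjusted p under 0.05. Only edgeR was checked on simulated data. In members without T cell transcripts it recovered 27.6% of 2-fold and 92.6% of 4-fold changes, and over all members 40.7 and 94.3%. Of its calls 6.60% and 7.14% were false, in the same order. In the class by group test it recovered 4 and 50%, with 0% of calls false, and only genes above a minimum count in the members were changed. Counts were drawn per library, so single cells that dominate a gene were not simulated. Most simulated 2-fold changes were thus not called. Levels are UMIs per 1000000 summed over cells. Doublets were scored with Scrublet (scanpy 1.11.5). Its automatic threshold marked 10 cells, under 0.5% of each library, so the highest scores were left out as an alternative, at 0.8% per 1000 barcodes. Shares and depths were compared by exact permutation over libraries, with exact Clopper-Pearson intervals.

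Named were the genes of the rule, up to 6 of each list with the highest level, 15 leading genes at 50 CPM or more by ratio with 1 CPM added, and in each test up to 10 called genes per direction whose libraries did not overlap. Genes outside this rule, among them those of single cells and at 0, and Gm42418, Klrd1, Klrk1, Traf1, Gzma, Cd22 and Plac8, were chosen after their values were seen. A few listed genes are not reported here.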

Additional observations from a re-analysis of the deposited data

Results flagged for a closer look

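A difference between groups that departed from that in the other kept cells (edgeR, product of class and group, adjusted over 11899 genes) singled out 4 genes in members without T cell transcripts. The adjusted p was 1.82e-06 for Cst3, 1.60e-05 for Tbc1d4, 0.00509 for Fabp5 and 0.0402 for S100a4, all toward C6M9. In CPM, Cst3 stood at 149 and 165 in M9 and 327 and 2634 in C6M9 in these members, beside 80.2 and 70.9 in M9 and 79.9 and 75.1 in C6M9 in the other cells. Tbc1d4 was at 0 and 23.6 CPM in M9 and 472 and 29.4 CPM in C6M9, Fabp5 at 0 in both M9 libraries and 799 and 7.34 CPM in C6M9, and S100a4 at 0 in M9 and 458 and 110 CPM in C6M9. The fitted differences of Fabp5 and S100a4 depend on the zero counts of M9 and are not given as bounds. With the 2 members that lack B cell receptor genes left out, none of the 4 was called.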

How the results depend on the processing

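The number of genes called between groups in members without T cell transcripts, 4, became 0 with DESeq2, 12 with no filter on low counts, 12 with a T gene limit of 20 per 10000, 0 when the cells without receptor genes were left out, and 7 to 10 with 1 library left out. A replicate block gave 4 calls, 3 of them in common and without Hspa8, and the difference of Gm42418 ranged from -2.12 to 0.056 with 1 library left out, the latter without M9 replicate 2. For these cells like-numbered libraries deviated in opposite directions (r = -0.248 over 896 genes), and a crossed replicate block, added after seeing the data, gave 5 calls. Over all members the 13 calls became 0 with DESeq2, 29 with no filter, 7 in members with T cell transcripts alone and 6 to 97 with 1 library left out, and a replicate block gave 13, with 11 in common. The 4 calls of the class by group test became 0 to 9 with 1 library left out, and 2 without the cells lacking receptor genes, where the fitted differences of Fabp5 (-0.20), S100a4 (-1.11) and Tbc1d4 (-9.34) changed sign with SEs larger than their size. The cause of these shifts was not tested. The share of members without T cell transcripts that held both light chain kinds was 54.4% at 10 UMIs of each, and in members with them 64.7%. Ighm with Ighd was seen in 94.7% at 1 UMI and 17.5% at 10 in members without T cell transcripts, and in 97.1 and 35.3% in those with them. The difference in member shares ranged from 0.200 to 0.824 points with 1 library left out and from 0.397 to 0.888 points under the alternatives of threshold, genes, filters and doublets, with the C6M9 mean higher in each, and the groups overlapped over all deposited barcodes and under a stricter cell filter. In the 57 cells, which held 315245 UMIs, 896 genes passed the filter on low counts, so genes of lower level could not be compared.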

Other observations

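Outside the members, 6 kept cells also had under 5 T cell gene UMIs per 10000. A cell of C6M9 replicate 1 with 11708 UMIs held 417 UMIs of Lyz2, 48 of Tyrobp, 51 of Ifitm3 and 40 of Ms4a6c. A cell of C6M9 replicate 2 with 14635 UMIs held 212 of Lyz2, 59 of Cst3, 82 of Ifitm3 and 16 of Cd74. A cell of M9 replicate 1 with 5368 UMIs held 65 UMIs of Gzma, 144 of Ccl5, 5 of Ncr1 and 6 of Klrb1c, genes of natural killer cells, and no UMI of the 6 B cell genes. The other 3 had 1449, 20691 and 1018 UMIs. Of the 269 cells between 5 and 50 B gene UMIs per 10000, 135 had no UMI of Cd79a, Cd79b or Ms4a1, and 57 had Igkc and 44 Ebf1.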
